A study of Mus musculus with 6 samples.

Results

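Antiviral effector genes of the type I interferon response were followed in the peripheral ventrotemporal (VT) retina of WT and Slc6a4-/- mice 24 h after optic nerve crush (ONC). They were Ifit1, Ifit3, Rsad2, Oas2, Oas1b, Ddx60, Samd9l, Helz2, Ifi27 and Ifi27l2a, which make 10 of the 701 genes in the table. The genes were chosen by name as interferon-induced antiviral effectors and RNA sensors, without the interferon-inducible GTPases. The authors had put all 701 genes into the table because they passed a threshold of 0.05 on the p-value between the genotypes in these same samples. They had also asked for 10 or more reads in 2 samples of one genotype, which 8 of the 10 genes met in both genotypes, while Oas2 and Ifi27l2a met it only in Slc6a4-/-, where they were high. The difference between genotypes had therefore already entered the choice of the genes, and their values are given as a description.

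The WT mice were C57BL/6J, and the Slc6a4-/- mice came as a separate purchased line with a constitutive loss of SERT, the serotonin transporter. The labels give C57BL/6 as the strain of all 6 samples. All animals were 8 weeks old (postnatal day 56), and in all of them the optic nerve of the left eye had been crushed, so that no uninjured retina enters the comparison. Each genotype had 3 samples, and each sample pooled the peripheral VT retinae of 3 mice. The spread between samples is therefore the spread between pools. Genotype and line of origin cannot be told apart in this design.

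Type I interferons are secreted when a cell senses foreign or misplaced nucleic acid, and they act through a receptor and its kinases on a complex of transcription factors that includes IRF9. This complex binds the interferon-stimulated response element in the promoters of many genes, whose products block viruses at entry, translation, replication and release. In the retina, microglia and Müller glia are known as responders to interferon, and neurons also express the receptor. Bulk RNA does not show which cells carried the transcripts, and fewer cells of a type cannot be told apart from less RNA per cell.

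The sequence of the response element was not used to choose the genes, although they were chosen as interferon-induced. RefSeq promoters (GRCm38.p6, 250 bases before to 50 bases after the transcription start) were matched by symbol for 6 of the 10 genes, namely Ddx60, Helz2, Ifit1, Ifit3, Rsad2 and Samd9l. The core of the element, GAAA and any 2 bases followed by a second GAAA, was searched on both strands and reads as a pair of TTTC on the opposite one. It was found in 4 of the 6 promoters, in 1131 of 32851 promoter windows of the same length (3.44%), and in 35 of the 508 genes of the table that were matched (6.89%). The upstream bases of the 4 promoters are shown because the spacing and number of the matches differ between the genes. They read 5′ to 3′ on the strand of the gene, end at the last base before the start, and carry the matches in capitals.
Ddx60 (chr8:61927837-61928086, plus strand): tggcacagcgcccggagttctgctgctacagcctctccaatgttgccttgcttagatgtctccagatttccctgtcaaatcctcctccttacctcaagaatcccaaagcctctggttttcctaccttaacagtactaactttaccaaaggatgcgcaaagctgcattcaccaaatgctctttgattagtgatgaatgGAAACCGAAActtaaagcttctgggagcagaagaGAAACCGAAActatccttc
Rsad2 (chr12:26456453-26456702, minus strand): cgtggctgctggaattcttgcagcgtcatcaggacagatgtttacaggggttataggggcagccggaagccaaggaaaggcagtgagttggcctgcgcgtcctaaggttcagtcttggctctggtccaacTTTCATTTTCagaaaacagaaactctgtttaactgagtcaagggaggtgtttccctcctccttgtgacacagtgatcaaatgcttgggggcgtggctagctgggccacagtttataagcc
Ifit3 (chr19:34583279-34583528, plus strand): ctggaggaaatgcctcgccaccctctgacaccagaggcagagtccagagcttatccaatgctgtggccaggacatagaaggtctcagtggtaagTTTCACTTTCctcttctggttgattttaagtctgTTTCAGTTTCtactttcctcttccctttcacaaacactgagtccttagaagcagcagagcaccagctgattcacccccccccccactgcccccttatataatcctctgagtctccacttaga
Ifit1 (chr19:34640639-34640888, plus strand): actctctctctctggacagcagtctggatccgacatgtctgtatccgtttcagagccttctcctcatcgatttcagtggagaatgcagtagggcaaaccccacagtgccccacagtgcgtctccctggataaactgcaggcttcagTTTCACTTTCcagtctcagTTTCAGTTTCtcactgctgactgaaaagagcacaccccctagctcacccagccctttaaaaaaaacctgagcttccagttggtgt

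In the Ddx60 promoter both matches lay on the strand of the gene, from -53 to -44 and from -19 to -10 bases relative to the start. Ifit3 and Ifit1 also held 2 matches each, all on the opposite strand. Those of Ifit3 ran from -156 to -147 and from -122 to -113, and those of Ifit1 from -104 to -95 and from -85 to -76. Rsad2 had a single match, from -120 to -111 on the opposite strand. The longer form, in which CT follows the second GAAA, was found in Ddx60, Ifit3 and Ifit1, in 0.271% of all windows and in 1.38% of the matched genes of the table. No match to the core was found in the windows of Helz2 and Samd9l, which says only that these letters do not occur there. Of the 17 other interferon pathway genes in the table with a promoter, 9 held the core, among them Eif2ak2, Gbp3, Ifitm3 and B2m.

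**Figure D1:**
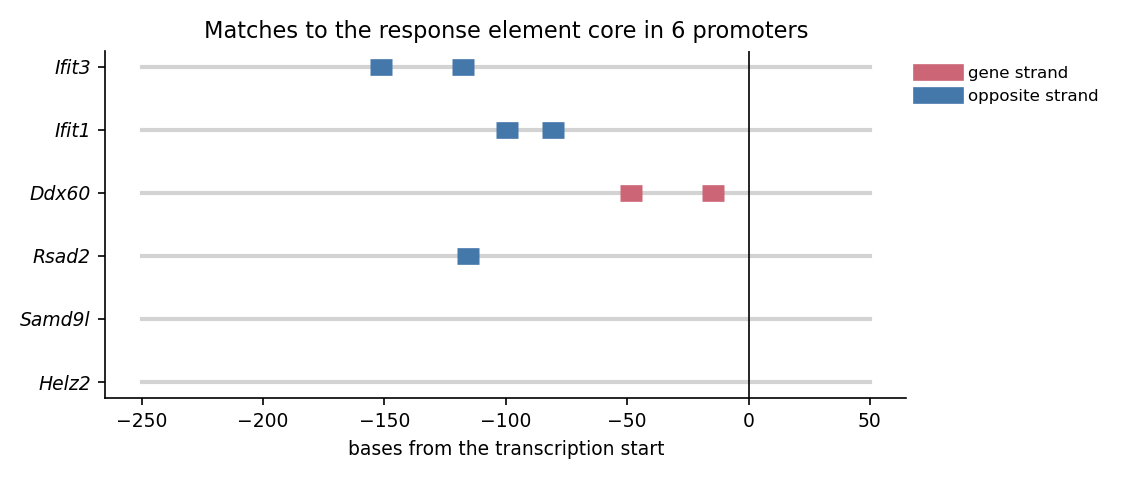
Matches to the core of the response element in the promoter windows of 6 antiviral effector genes. The horizontal axis gives bases from the transcription start, each grey line is a window from 250 bases before to 50 bases after it, and the colour of a block gives the strand. Ddx60, Ifit1 and Ifit3 hold 2 blocks each, Rsad2 holds 1, and Helz2 and Samd9l hold none.

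Libraries held 76.1 M to 93.3 M mapped reads, as recovered from the RPKM values of the table. These totals are above the number of reads per sample that the paper states. Whether both mates of a pair were counted is not given. Counts were divided by a factor proportional to these totals, and the quotient is called the scaled count. Reads of the deleted gene matched the labels, since Slc6a4 had 1516, 1397 and 1548 reads in the WT pools but 0, 0 and 3 reads in the Slc6a4-/- pools, each in the order of samples 1, 2 and 3. The photoreceptor transducin gene Gngt1 was abundant in every sample. The cone opsin gene Opn1sw, whose level varies over the retina, was at 5182, 16001 and 11677 reads in WT and at 5198, 4226 and 6054 reads in Slc6a4-/-, so that WT sample 1 stood with the mutant pools. Differences are given on the scale of log2(scaled count + 1), as Slc6a4-/- minus WT with the standard error (SE) of a limma fit, a scale that understates the change of genes with few reads.

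All 10 antiviral genes had a higher mean in Slc6a4-/- than in WT, and in all 10 the lowest Slc6a4-/- sample lay above the highest WT sample. Of all 701 genes, 56.6% were higher in Slc6a4-/- and 36.4% were higher without overlap. The median difference of the 10 genes was 0.70, with a range from 0.42 for Ddx60 to 2.09 for Oas2. The median of all 701 genes was 0.30, and that of the 397 genes higher in Slc6a4-/- was 0.64. The ratio of mean scaled counts passed 1.5 in 7 of the 10 genes, and was 1.48 for Samd9l, 1.37 for Helz2 and 1.33 for Ddx60. In the limma fit over the 701 genes, 0 of the 10 passed an adjusted p (Benjamini-Hochberg) of 0.05 together with a 1.5-fold change, against 1.43% of the table, while 9 had an unadjusted p below 0.05, against 32.7% of the table in that direction. With limma's voom weights the counts were also 0 and 9, under median-of-ratios scaling 6 had an unadjusted p below 0.05 (Ifit1, Ifit3, Ddx60 and Helz2 did not), and with single samples left out 7 to 9 did. The share of the table below this unadjusted p in these alternative fits is not given here. Without WT sample 1, 4 of the 10 genes (Rsad2, Samd9l, Ifi27 and Ifi27l2a) passed both thresholds, as did 155 genes of the table. These shares carry no weight as a test, since the same contrast chose the table.

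**Figure D2:**
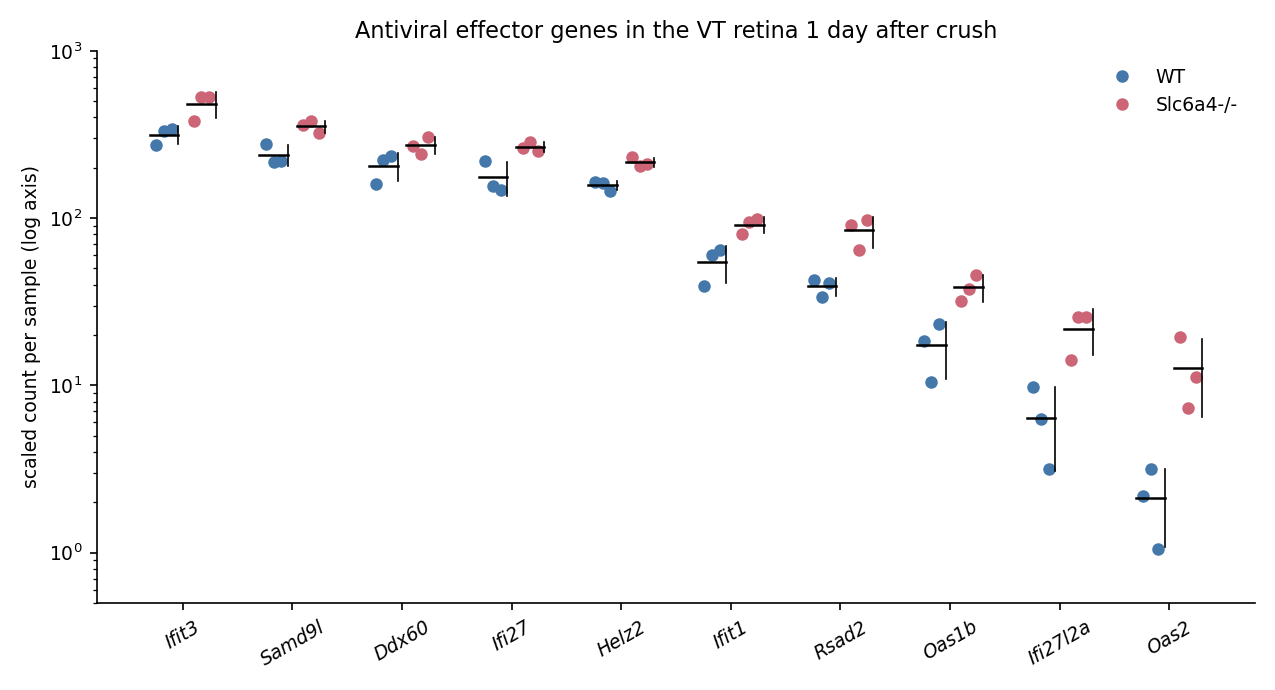
Scaled counts of the 10 antiviral effector genes in each sample, on a log axis. Points are samples (blue WT, red Slc6a4-/-, samples 1 to 3 from left to right), horizontal bars are the mean and vertical bars the SD of 3 samples. In every gene the 3 red points lie above the 3 blue points, with a wide gap for Oas2 and Rsad2 and a narrow one for Ddx60.

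Ddx60 and Helz2 are large helicases. DDX60 has been described as a helper of cytoplasmic RNA sensing by the RIG-I family. Ddx60 (GRCm38 chromosome 8, 61928087 to 62038244) was counted at 147, 212 and 222 reads in WT and at 305, 264 and 299 reads in Slc6a4-/-, here and for the genes that follow in the order of samples 1, 2 and 3. Mean scaled counts were 205.3 ± 39.7 in WT against 272.9 ± 31.3 in Slc6a4-/- (SD, n = 3 each), a log2 difference of 0.42 (SE 0.19). The groups came close to touching, since the lowest Slc6a4-/- sample was 1.04 times the highest WT sample. They overlapped when samples were scaled by the median of ratios over the table or by the table total, and the difference was 0.25 without WT sample 1, which held the fewest Ddx60 reads.

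Helz2 encodes a helicase with zinc fingers that also acts as a coactivator of nuclear receptors. It lies on chromosome 2 (181227615 to 181242027) and was counted at 150, 155 and 139 reads in WT and at 260, 224 and 206 reads in Slc6a4-/-. Mean scaled counts of 157.3 ± 9.74 in WT against 215.7 ± 13.3 in Slc6a4-/- (SD, n = 3 each) gave a log2 difference of 0.45 (SE 0.14). Helz2 was the most even of the 10 genes between pools. Its coefficient of variation (CV) was 6.19% in WT and 6.17% in Slc6a4-/-, where counting error alone would give 8.22% and 6.59%.

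Ifit1 and Ifit3 encode tetratricopeptide proteins that bind foreign RNA and hold back its translation, and they lie 52.1 kb apart on chromosome 19. Ifit1 (34640871 to 34650009) was counted at 36, 57 and 61 reads in WT and at 91, 103 and 97 reads in Slc6a4-/-. All Slc6a4-/- pools were above all WT pools, and WT sample 1 stood below the other WT pools. After scaling, the means were 54.4 ± 13.4 in WT against 91.5 ± 9.53 in Slc6a4-/- (SD, n = 3 each), a log2 difference of 0.77 (SE 0.26).

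Ifit3 (34583531 to 34588731) had 251, 315 and 326 reads in WT and 429, 574 and 519 reads in Slc6a4-/-. It shared with Ifit1 the low WT sample 1, and its Slc6a4-/- sample 1 was also lower than the other mutant pools. Mean scaled counts were 315.5 ± 37.3 in WT against 479.4 ± 85.4 in Slc6a4-/- (SD, n = 3 each), a log2 difference of 0.59 (SE 0.18). The CV of Ifit3 in Slc6a4-/- was 17.8% against a counting error of 4.44%, so that the pools differed by more than counting error, and under median-of-ratios scaling the groups overlapped. Reads of the near copies Ifit3b, Ifit1bl1 and Ifit1bl2, which lie between both genes and had no row among the 701, may have been split with them by the counting.

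Rsad2 encodes viperin, a radical SAM enzyme whose product stops viral RNA synthesis. It lies on chromosome 12 (26442746 to 26456452). Its counts were 39, 32 and 39 reads in WT and 102, 70 and 96 reads in Slc6a4-/-. The WT pools were close together, with a CV of 12.1% against a counting error of 16.5%, and the lowest Slc6a4-/- pool was still 1.52 times the highest WT pool. On scaled counts, Rsad2 averaged 39.0 ± 4.73 in WT against 84.3 ± 17.7 in Slc6a4-/- (SD, n = 3 each), a ratio of 2.16 and a log2 difference of 1.08 (SE 0.25). Leaving out single samples moved that difference between 0.96 and 1.26.

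Oas2 and Oas1b belong to the oligoadenylate synthetases, which answer double-stranded RNA with a short messenger that switches on the ribonuclease RNase L. They lie 62.8 kb apart on chromosome 5. Oas2 (120730333 to 120749853) was barely detected in WT, at 2, 3 and 1 reads, and had 22, 8 and 11 reads in Slc6a4-/-. Summed over pools and set against the mapped reads, 6 reads in WT and 41 in Slc6a4-/- gave a ratio of 6.04, with an exact 95% interval from 2.55 to 17.4 that covers counting error only. Since Oas2 entered the table only through its reads in Slc6a4-/-, its genotypes had to differ, and neither the ratio nor its interval is evidence of a difference. The log2 difference was 2.09 (SE 0.53), and it was 1.27 when 5 was added to the counts in place of 1. Gm43068, annotated on the opposite strand, overlaps Oas2, and reads of both genes cannot be told apart if strand was not used in the counting.

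Oas1b is the flavivirus resistance gene of the mouse, which carries an early stop in most laboratory strains and is annotated as a polymorphic pseudogene. At 120812635 to 120824163 it had 17, 10 and 22 reads in WT and 36, 41 and 45 reads in Slc6a4-/-. No Slc6a4-/- pool fell into the WT range, although WT varied more, with a CV of 36.8%. Mean scaled counts were 17.4 ± 6.39 in WT against 38.5 ± 7.03 in Slc6a4-/- (SD, n = 3 each), a log2 difference of 1.16 (SE 0.37). Other Oas1 copies lie next to Oas1b and had no row among the 701 genes, and how shared reads were counted between them is not given in the sources used here.

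Samd9l encodes a large cytoplasmic protein that restricts poxviruses and slows translation and growth. On chromosome 6 (3372257 to 3399572) it was counted at 256, 206 and 210 reads in WT and at 404, 412 and 314 reads in Slc6a4-/-. Samples of both groups stayed apart, and within WT it was sample 1 that stood highest. Scaled counts averaged 238.5 ± 34.7 in WT against 352.6 ± 29.5 in Slc6a4-/- (SD, n = 3 each), a log2 difference of 0.57 (SE 0.15).

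Ifi27 and Ifi27l2a belong to the ISG12 family of small hydrophobic membrane proteins and are separated by 1.93 kb on chromosome 12. Ifi27 (103434211 to 103440239) was counted at 203, 149 and 140 reads in WT and at 294, 311 and 246 reads in Slc6a4-/-. Mean scaled counts were 174.8 ± 40.1 in WT against 266.0 ± 17.9 in Slc6a4-/- (SD, n = 3 each), a log2 difference of 0.62 (SE 0.19). WT sample 1 came closest to the mutant pools, and without it the difference was 0.80.

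Ifi27l2a (103442167 to 103443680) had few reads, 9, 6 and 3 in WT and 16, 28 and 25 in Slc6a4-/-. The sums of 18 and 69 reads gave a ratio of 3.39 per mapped read, with an exact 95% counting interval from 1.99 to 6.05. Ifi27l2a too entered the table only through Slc6a4-/-, and the interval is given as a description of counting error. The log2 difference was 1.68 (SE 0.49). As in Ifi27, WT sample 1 was the highest WT pool and WT sample 3 the lowest. The near copy Ifi27l2b had no row among the 701 genes.

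Levels per length placed the 10 genes far apart. In reads per kilobase of exon per M mapped reads (RPKM), Ifit3 led in both genotypes, at 2.18 ± 0.258 (SD, n = 3) in WT and 3.32 ± 0.591 in Slc6a4-/-. Ifi27 followed at 1.44 ± 0.330 and 2.19 ± 0.147, and Samd9l at 0.531 ± 0.0772 and 0.785 ± 0.0657. The other 7 genes lay below. Oas2 was the lowest, at 0.00577 ± 0.00285 and 0.0345 ± 0.0169. The middle of the order depended on genotype. In Slc6a4-/- the descending order of RPKM was Ifi27l2a, Ifit1, Ddx60, Rsad2, Oas1b and Helz2, and in WT it was Ddx60, Ifit1, Ifi27l2a, Helz2, Rsad2 and Oas1b. Neighbours in these orders whose samples overlapped were Ifi27l2a, Ifit1 and Ddx60, and Rsad2, Oas1b and Helz2, in Slc6a4-/-, and Ddx60, Ifit1, Ifi27l2a and Helz2, and Rsad2 and Oas1b, in WT. The exon lengths are those of GENCODE M21. For Ifi27 and Ddx60 the authors' mean RPKM in Slc6a4-/- was higher, 3.12 and 0.49 against 2.19 and 0.380 here.

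**Figure D3:**
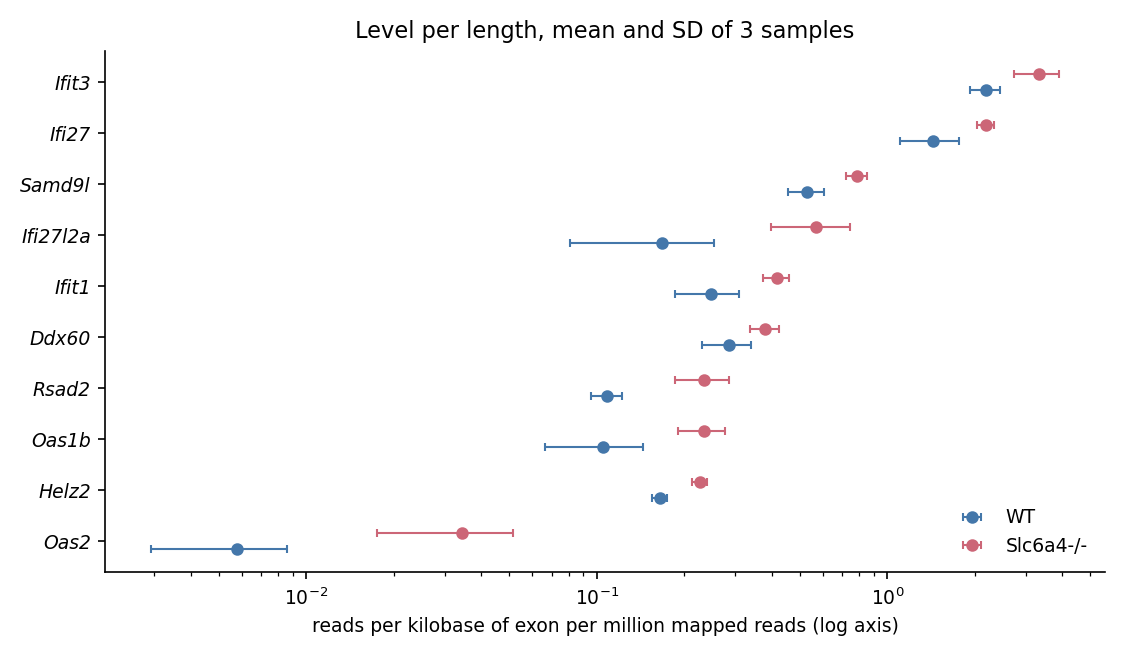
Level per length of the 10 antiviral effector genes in WT (blue) and Slc6a4-/- (red). The horizontal axis gives RPKM on a log axis, points are means and bars the SD of 3 samples. Ifit3 and Ifi27 are at the top at 3.32 and 2.19 in Slc6a4-/-, and Oas2 is at the bottom at 0.0345.

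The 10 genes differed in which pool of a genotype stood highest. Within WT, Ifit1, Ifit3 and Ddx60 had their lowest value in sample 1 and their highest in sample 3. Helz2, Ifi27 and Ifi27l2a had the reverse order of scaled counts, although samples 1 and 2 were nearly level for Helz2, and Rsad2 and Samd9l were also highest in sample 1. Within Slc6a4-/-, sample 3 was highest for Ifit1, Ifit3, Rsad2, Oas1b and Ddx60, sample 2 for Samd9l, Ifi27 and Ifi27l2a, and sample 1 for Oas2 and Helz2. Averaged over the 10 genes, the WT pools stood at 0.07, -0.01 and -0.06 from the WT mean on the log2 scale, while the Slc6a4-/- pools stood at 0.91, 0.89 and 1.03. These means include Oas2 and Ifi27l2a, which entered the table only through Slc6a4-/-. The medians over the 10 genes were 0.60, 0.74 and 0.82 in Slc6a4-/- samples 1, 2 and 3. Since the same contrast chose the genes, the heights of the pools are a description only.

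Markers of other cells also had rows in the table. Of 21 myeloid marker genes 13 had a row in the table, 11 of them higher in Slc6a4-/- (7 without overlap) and 2 (Bin2 and Hcls1) lower. Of the 397 genes of the table higher in Slc6a4-/-, 255 were without overlap. Ccr2, S100a8, Chil3 and Ptafr had 10 or more reads in 2 samples only in Slc6a4-/-, so that the choice of the table set their direction. The median log2 difference of the 13 was 0.96, beside 0.70 for the antiviral genes and 0.30 for the table. Their summed scaled counts ranged from 804 to 863 in WT and from 909 to 1140 in Slc6a4-/-, sums in which Hcls1 is the most abundant gene. The defining markers Ptprc, Itgam, Cd68, Csf1r, Adgre1, Cx3cr1, Tmem119 and P2ry12 had no row among the 701 genes, and Ccr2 was at 0 reads in WT sample 3. Markers of retinal pigment epithelium and melanocytes (7 of 12 in the table, all 7 higher, 2 without overlap, median 1.06) summed to 1095 to 2727 in WT and 2526 to 4276 in Slc6a4-/-. Fibroblast markers (6 of 10 in the table, 5 higher, 4 of these without overlap, and Col1a1 lower, median 1.07) summed to 1021 to 4463 in WT and 3537 to 5194 in Slc6a4-/-. The fibroblast marker Omd, too, met the read minimum only in Slc6a4-/-. Of 7 endothelial markers, 2 had a row, both higher and 1 of them without overlap. These 2 summed to 260 to 473 in WT and 481 to 648 in Slc6a4-/-. Of 8 ganglion cell markers, 3 had a row, all 3 lower (median -0.19). Only Ina was without overlap, while Nefl and Elavl2 overlapped between genotypes. The 3 summed to 12669 to 14642 in WT and 10657 to 12982 in Slc6a4-/-. Of all 701 genes, 304 were lower, 171 of these without overlap. The 6 photoreceptor and bipolar cell markers with a row (2 higher, 4 lower, median -0.19) overlapped in their sums, as did the pigment cell, fibroblast and ganglion cell markers. The part of these cells in the levels of the antiviral genes was not tested.

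Within WT the pigment cell and fibroblast lists were highest in sample 1 and lowest in sample 3. Their mean over genes stood at 0.65 and 0.73 above the WT mean in sample 1 and at -0.75 and -0.92 in sample 3 on the log2 scale. The order of Ifit1, Ifit3 and Ddx60 in these pools was the opposite, and that of Helz2, Ifi27 and Ifi27l2a was the same. Of all 397 genes higher in Slc6a4-/-, 50.9%, and of all 701 genes 34.8%, stood highest in WT sample 1, between in sample 2 and lowest in sample 3, as did 3 of the 10 antiviral genes. These orders rest on 3 pools.

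**Figure D4:**
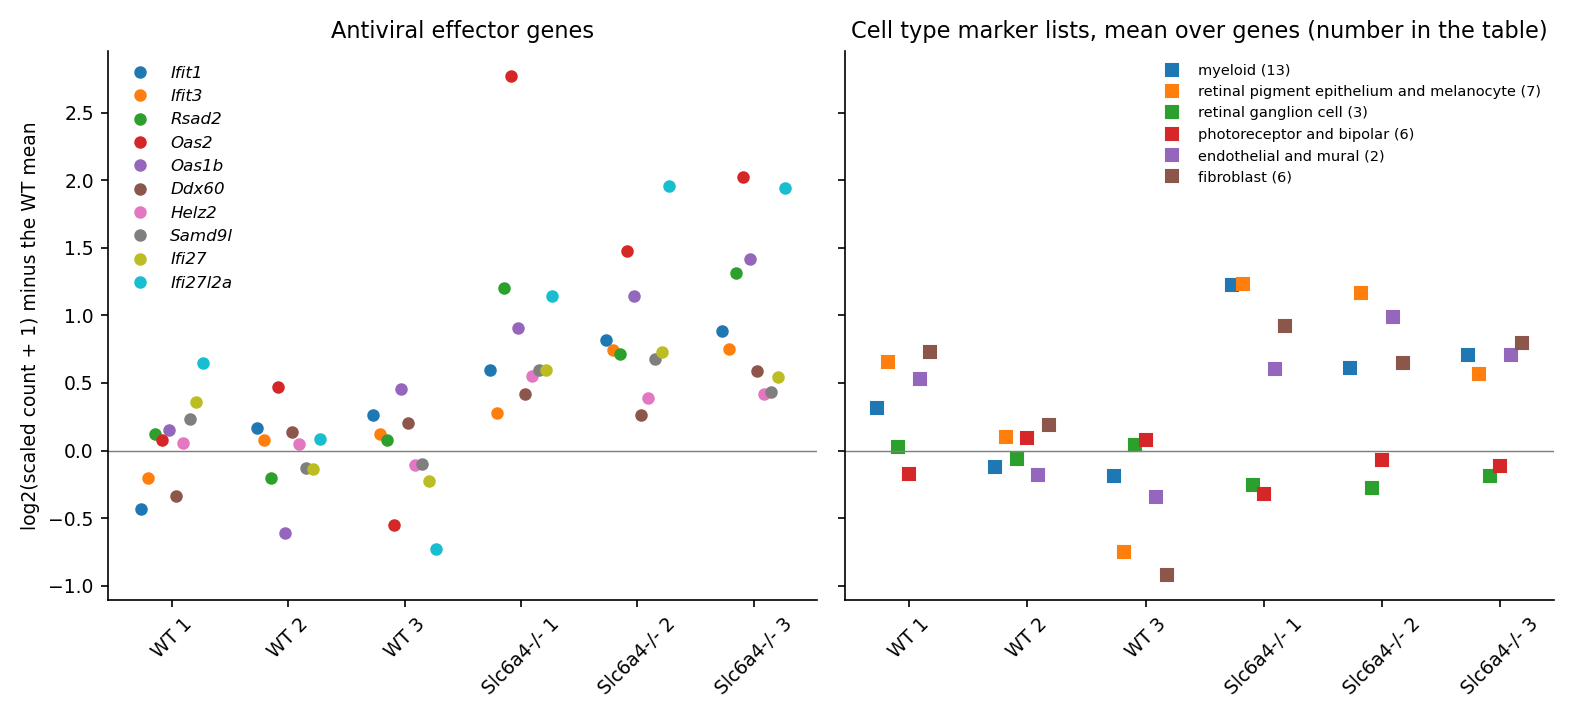
Values per sample relative to the WT mean, on the log2(scaled count + 1) scale, for the 10 antiviral effector genes (left) and for the mean over the genes of 6 marker lists (right, number of genes in the table in brackets). Points are shifted sideways only to keep them apart. The antiviral genes are above 0 in every Slc6a4-/- sample, while the pigment cell and fibroblast lists already differ by more than 1 between WT samples 1 and 3.

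The rest of the pathway was read from lists of 116 further genes, of which 23 had a row in the table. Of these, 22 were higher in Slc6a4-/- and 17 of the 22 without overlap, with a median difference over the 23 of 0.79. In the whole table of 701 genes, 397 were higher, and 255 of the 397 were without overlap. The median of the 397 was 0.64. Since the same contrast chose the table, the counts of the pathway lists carry no weight as a test. Upstream, 0 of 8 interferon genes and 0 of 7 receptor and kinase genes had a row, so that the table gives no value for the ligand or its receptor. Among 17 sensors and adaptors there were 3. They were Wdfy1, an adaptor of endosomal Toll-like receptors (log2 difference 0.82, SE 0.14), Ifi204, a DNA sensor of the HIN family (1.15, SE 0.37), and Eif2ak2, the double-stranded RNA kinase PKR (0.48, SE 0.15). Wdfy1 was the 1 pathway gene past both thresholds, at an adjusted p of 0.0495 in limma, against 1.43% of the table.

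Of the 8 transcription factor genes only Irf3, which switches on interferon genes after sensing, had a row. Mean scaled counts were 738.3 ± 47.7 in WT against 1087 ± 83.4 in Slc6a4-/- (SD, n = 3 each), without overlap (log2 difference 0.56, SE 0.10). Irf7 and Irf9, which are themselves induced by interferon, had no row among the 701 genes.

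Other effectors had 7 rows of 52, all higher and 4 without overlap, with a median of 0.79. Slfn4, a myeloid Schlafen gene, had the largest difference of the pathway at 3.30 (SE 0.63), from 15.5 ± 8.48 scaled counts in WT to 186.6 ± 159 in Slc6a4-/- (SD, n = 3 each). Slc6a4-/- sample 1 held 417 reads of it, against 113 and 84 in samples 2 and 3, and without it the difference was 2.64. The membrane restriction factors Ifitm2 and Ifitm3 and the death ligand Tnfsf10 overlapped between genotypes. Isg15, Mx1, Mx2, Bst2, Ifit2 and Oas3, all classical targets of interferon, had no row.

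Interferon-inducible GTPases, which attack the vacuoles of intracellular pathogens, had 6 rows of 14 with a median of 0.85. Of these, 5 were without overlap, from 0.61 for Gbp9 to 2.20 for Tgtp1, and Gbp6 overlapped at 0.46. Tgtp1, at 4, 10 and 2 reads in WT, met the read minimum only in Slc6a4-/-, so that the choice of the table set its direction. Antigen presentation genes had 5 rows of 7 with a median of 0.60, among them B2m, the light chain of class I molecules, at 0.60 (SE 0.20). Socs3, an inhibitor of JAK kinases, was the only pathway gene with a lower mean in Slc6a4-/-, by -0.46 (SE 0.25).

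**Figure D5:**
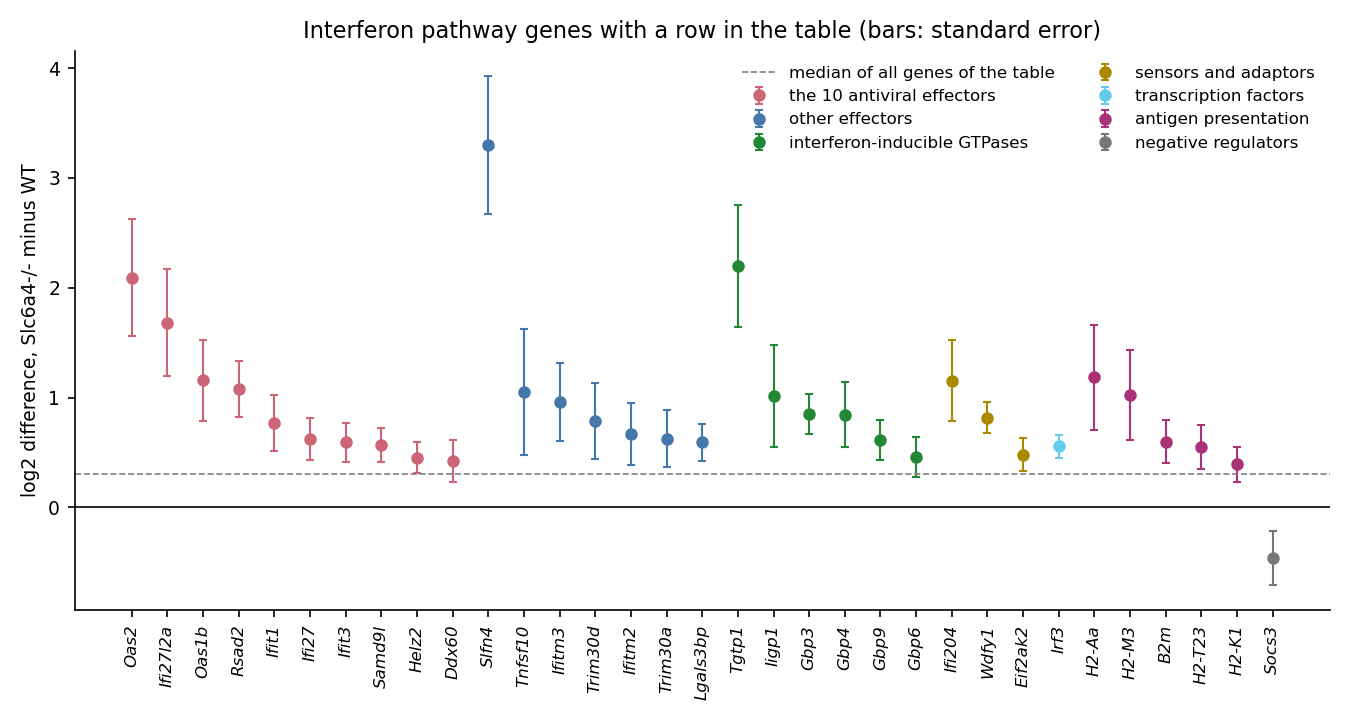
Difference between genotypes (Slc6a4-/- minus WT, log2 scale) for the 10 antiviral effector genes and the 23 other interferon pathway genes with a row in the table. Points are limma estimates, bars the SE, and the dashed line the median of all 701 genes (0.30). All genes but Socs3 lie above 0, with Slfn4 at 3.30 and Oas2 at 2.09.

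The genes whose profile over the 6 samples was most like the mean profile of the 10 were found by the root mean square distance of centred log2 values. In order they were Gabra2 (0.107), Rec8 (0.132), Fcgr2b (0.137), Pld5 (0.144) and Gbp3 (0.155). Gabra2, a subunit of the GABA-A receptor, stood at 552.7 ± 36.7 (SD, n = 3) scaled counts in WT and 1112 ± 70.7 in Slc6a4-/-. Each of the 10 antiviral genes lay farther from their common mean than these genes, from 0.195 for Rsad2 to 0.743 for Oas2. The likeness is measured over 6 samples and includes the step between genotypes, which 36.4% of the table showed upward without overlap.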

How the data were processed

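Total RNA with reduced ribosomal RNA was sequenced from 6 pooled samples (75-base paired reads). The authors aligned the reads to GRCm38 and counted them in the CLC Genomics workbench (v20.0). Raw counts per gene and sample were deposited for 701 genes, with commas as digit separators, which were removed, and 25 blank lines were skipped. Deposited beside them were an RPKM value per gene, averaged by the authors over whichever genotype was higher, and fold changes and p-values of their own comparison, which were not used. The table holds the genes that passed their threshold of 0.05.

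Mapped reads per library were recovered by robust least squares from the deposited RPKM and GENCODE M21 exon lengths (82 of 168 genes higher in WT and 65 of 168 higher in Slc6a4-/- within 1%). The SE of these totals, over only the genes kept within 1%, was 0.31% to 0.48%. On a single simulated table the largest error over the 6 samples was 0.283%. A planned count model was not run, because the counts as written, with commas, did not pass a check for whole-number counts. Genotypes were compared with limma 3.58.1 (R 4.3.3; lmFit, eBayes with trend) on log2(scaled count + 1) over all 701 genes and 6 samples, with Benjamini-Hochberg adjustment. On simulated counts 94% of 100 genes changed by 1 and 97% of 100 changed by 1.5 on the log2 scale were recovered. The simulation gave every gene the same spread beyond counting error, which was below that of genes such as Opn1sw (CV 48.5% in WT). The recovered shares therefore do not tell how many real changes of this size would pass. In the data Rsad2, Oas1b, Ifi27l2a and Oas2, with differences above 1, had an adjusted p of 0.0981 in limma. Pooled ratios have exact binomial 95% intervals. With 3 samples a group, and pools as the unit, p-values set a difference against the spread between pools. In eBayes the variance of each gene is drawn towards those of the 701 selected genes.

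Genes named are the 10 chosen genes, list members with a row, and the 5 most alike profiles. The genes, lists and motifs were chosen with earlier results of these data known. Alternatives were other scalings, a pseudocount of 5, a filter at a mean of 50, no trend, voom, a replicate block and leaving out each sample. A glial marker list and 1 further motif are not reported here.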

Additional observations from a re-analysis of the deposited data

How the results depend on the processing

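All 10 antiviral genes were higher in Slc6a4-/- under each alternative that kept them, and the 7 left by a mean of at least 50 scaled counts were too. The groups were apart in 8 genes under median-of-ratios scaling (Ifit3 and Ddx60 overlapped) and in 9 under the table total (Ddx60 overlapped). The shares of all 701 genes without overlap under these scalings are not given here, so that both counts stand without that comparison. The median difference of 0.70 was 0.54 under median of ratios, 0.87 without scaling, and 0.66 to 0.80 with single samples left out. It was 0.59 over the 7 genes left by the filter. The median of all 701 genes moved from 0.30 to 0.14 and 0.47 under median of ratios and without scaling, a shift that a scaling gives to nearly every gene alike. With the filter, the 7 genes left, without Oas2, Oas1b and Ifi27l2a, lay 0.32 above the median of the genes kept. The 10 genes lay above the median of all 701 genes by 0.40 as reported and by 0.51 without WT replicate 3. This median takes in 397 higher and 304 lower genes, so that any set of higher genes tends to lie above it. The 397 higher genes alone had a median of 0.64 as reported, close to the 0.70 of the antiviral genes. Without WT replicate 1, Ddx60, at 0.25, was below the median of all 701 genes, 0.31 in that fit. The 10 genes of the table past both thresholds (7 higher, 3 lower) became 114 without scaling (106 and 8), 43 without trend, 7 under median of ratios (3 and 4), 6 and 4 under the table total, and 5 to 155 with single samples left out, 155 without WT replicate 1. Of the antiviral genes 9 passed without scaling, 2 without trend (Rsad2 and Oas2) and 0 to 4 with single samples left out, the 4 without WT replicate 1 (Rsad2, Samd9l, Ifi27 and Ifi27l2a). Deviations from the genotype means correlated at 0.25, -0.16 and 0.08 between samples of the same number. Between samples of different numbers they correlated at -0.24 to 0.14. With 3 samples a group these values cannot decide whether replicate numbers paired the samples. With a replicate block 4 genes passed. Helz2 was 0.29 under median of ratios, and Helz2 and Samd9l were 0.63 and 0.74 without scaling. The longer motif was in 3 promoters against 4. Depth limits Oas2 and Ifi27l2a, which rest on 6 and 18 reads in WT.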
